A study of Arabidopsis thaliana with 12 samples.

Results

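Hyperphyllin was compared with its solvent in wild-type Arabidopsis thaliana seedlings on 6 of the 12 arrays of the series, which were chosen by their sample titles. 3 arrays measured RNA from seedlings that received 30 µM hyperphyllin dissolved in DMSO (1% by volume), and 3 measured RNA from seedlings that received DMSO alone at 1%. Each array held RNA from whole seedlings of the Col-0 accession, grown for 10 days at 26 °C under 16 h of light and 8 h of dark, with about 5 seeds per well, in liquid medium with 1% sucrose. Treatment began at germination, and the labels call the 3 samples of a group biological replicates. The remaining 6 arrays measured the mutant amp1-13, also in Col-0, with the same hyperphyllin and DMSO treatments. They entered the fit as a source of the spread between replicates and are set beside the wild type at the end.

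Hyperphyllin is a small molecule described as speeding up leaf formation and giving seedlings that resemble amp1 mutants. AMP1 (ALTERED MERISTEM PROGRAM 1) encodes a membrane protein related to glutamate carboxypeptidases, and plants that lack it form leaves faster from an enlarged shoot meristem and carry more cytokinin. Whole seedlings at this age contain green cotyledons and leaves, a small shoot tip and a root, so each value is an average over very different cells. Only 1 concentration and 1 age were sampled.

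The arrays were Affymetrix AraGene 1.1 ST, and the values were log2 expression values from RMA, a method that subtracts background, brings the arrays to a common distribution and combines a transcript's probes into 1 value (a probe set). The table held 38408 probe sets, of which 16746 (43.6%) were annotated with exactly 1 gene and were tested. They stood for 16552 loci, and 1826 of the tested probe sets had a gene symbol of their own. The other 14920 carried a locus code only, so most changed genes below are named by locus and are given no function. Values in the table ran between 0.593 and 12.73. Markers of the labelled tissue were present: RCA, the activase of the carbon-fixing enzyme Rubisco in green tissue, lay at 10.70, 10.64 and 10.67 with hyperphyllin, against 10.73, 10.70 and 10.60 with DMSO. EXPA7, an expansin of root hairs, lay between 4.93 and 5.46 with hyperphyllin and between 5.13 and 6.79 with DMSO. ANX2, a receptor-like kinase known from pollen tubes, lay between 1.69 and 1.84 with hyperphyllin and between 2.36 and 2.48 with DMSO.

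DMSO array 1 stood apart from the other 2 DMSO arrays. On the first principal component of the 6 arrays, which held 54.7% of the variance, the hyperphyllin arrays scored -19.5, -22.0 and -11.8, against -17.9, 33.9 and 37.4 for DMSO arrays 1, 2 and 3. Over the tested probe sets DMSO array 1 correlated at 0.984 on average with the hyperphyllin arrays and at 0.972 with its own group. The hyperphyllin arrays correlated with each other at 0.994 to 0.995. Array 1 carries the label of the DMSO group and was kept in it. The counts of called genes, most list counts and many single genes are given with it and without it. The label itself was not tested, and no gene known from outside these data to report the compound or the solvent was available.

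**Figure D1:**
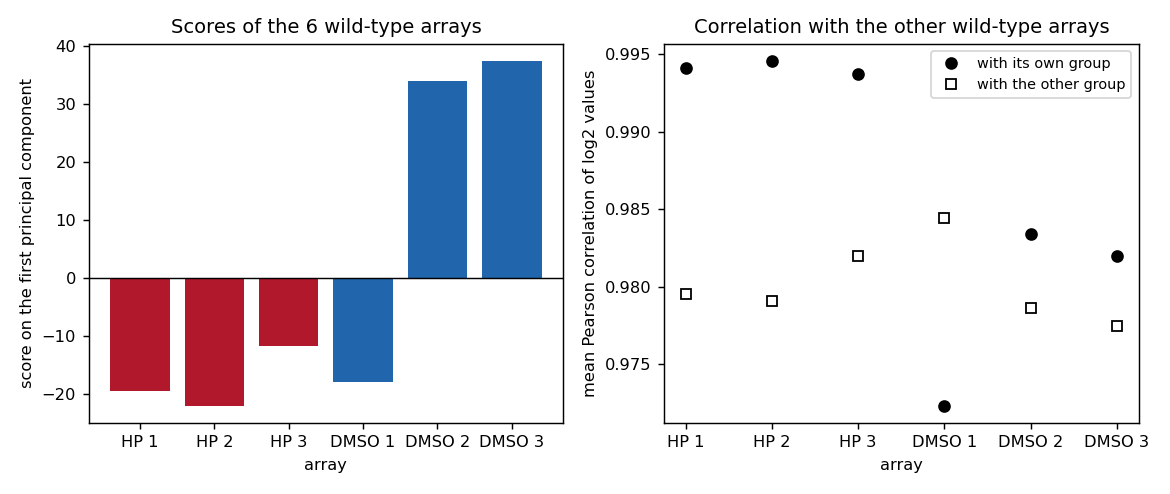
Scores of the 6 wild-type arrays on their first principal component (left) and the mean Pearson correlation of log2 values of each array with the arrays of its own group and of the other group (right). HP stands for hyperphyllin. DMSO array 1 scored -17.9, between the hyperphyllin arrays, and its correlation with the hyperphyllin group (0.984) was above that with its own group (0.972).

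With all 6 arrays, 304 of 16746 probe sets (1.82%) passed limma's test at an adjusted p under 0.05. Of these, 206 (1.23%) were higher with hyperphyllin and 98 (0.585%) were lower, and 107 (0.639%) differed at least 2-fold, 89 upward (0.531%) and 18 downward (0.107%). All 304 stood for different loci and had arrays that did not overlap between the groups, as did 19.6% of all tested probe sets (8.77% with hyperphyllin above and 10.9% with hyperphyllin below). Among the 304, 43 had a symbol of their own, 29 higher and 14 lower. The median log2 difference was 0.90 among the higher genes and -0.70 among the lower genes, and it was -0.05 over all tested probe sets. At an unadjusted p under 0.05 were 2936 probe sets (17.5%), which is the background for the unadjusted counts below.

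Without DMSO array 1, 2356 probe sets (14.1%) passed, 1049 higher (6.26%) and 1307 lower (7.8%). At least 2-fold were 602 of them (3.59%), 253 higher (1.51%) and 349 lower (2.08%). The 304 genes called with all arrays all passed again with the same sign. Leaving out any other array had the opposite effect on the count: 74, 22 and 54 genes passed without hyperphyllin array 1, 2 or 3, and 26 and 103 without DMSO array 2 or 3. The share of lower genes also moved, with 67.8% of the calls higher when all arrays were used and 44.5% higher without DMSO array 1. In the 2356 genes called without it, DMSO array 1 itself lay nearer the hyperphyllin mean than the mean of the other DMSO arrays in 1858 (78.9%). For the other 5 arrays, tested in the same way on the genes called without them, that held for 8 of 74, 0 of 22 and 6 of 54 genes for the hyperphyllin arrays, and for 1 of 26 and 22 of 103 for DMSO arrays 2 and 3. A gene that passes only once an array is left out is partly chosen for that array's distance from its group, so these shares are a description.

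**Figure D2:**
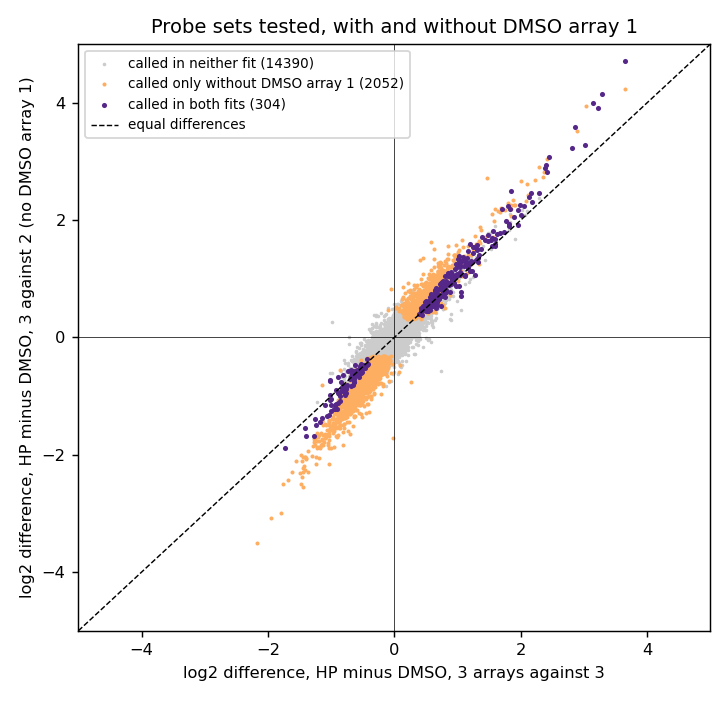
Log2 difference (hyperphyllin minus DMSO) of each tested probe set with 3 arrays against 3 (horizontal axis) and with DMSO array 1 left out (vertical axis). Purple points passed in both fits (304), orange points passed only without DMSO array 1 (2052), and grey points passed in neither. Most orange points lie farther from 0 on the vertical axis than on the horizontal axis.

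Of the 304 genes, 21 (0.125% of those tested) passed in every fit that left out 1 wild-type array, 18 higher and 3 lower. For 193 genes the call held in only 1 of these 6 fits, the one without DMSO array 1. These 21 were chosen by their adjusted p alone, not by how little the difference moved. 5 of them had a symbol: PDF1.4, PORB, TAPX, BIK1 and IDL4. Their log2 differences lay between 0.75 and 2.05 in the higher genes and between -1.02 and -1.0 in the lower ones.

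PDF1.4, a plant defensin-like gene of small secreted cysteine-rich peptides, lay at 4.95, 4.98 and 4.74 with hyperphyllin, against 3.24, 2.63 and 2.65 with DMSO. All hyperphyllin arrays were above all DMSO arrays, by 2.05 ± 0.21 (log2 difference ± SE of the fit, adjusted p = 0.00178, limma), and by 2.25 ± 0.20 without DMSO array 1. PORB, a protochlorophyllide oxidoreductase that carries out the light-dependent step of chlorophyll synthesis, lay at 9.10, 9.38 and 9.36 with hyperphyllin, against 8.20, 8.12 and 8.02 with DMSO. The 3 DMSO arrays were within 0.19 of each other there, and PORB rose by 1.17 ± 0.14 (adjusted p = 0.00306, limma; 1.21 without DMSO array 1). TAPX, the ascorbate peroxidase of the thylakoid membrane that removes hydrogen peroxide, lay at 8.61, 8.64 and 8.77 with hyperphyllin, against 7.92, 7.88 and 7.83 with DMSO. It rose by 0.80 ± 0.09 (0.82 without DMSO array 1). SAPX, the stromal enzyme of the same kind, lay at 7.09, 6.97 and 6.91 with hyperphyllin and at 6.85, 7.05 and 7.17 with DMSO. BIK1, a cytoplasmic kinase that relays signals of immune receptors, lay at 8.78, 8.82 and 8.73 with hyperphyllin, against 8.15, 7.92 and 8.00 with DMSO. It rose by 0.75 ± 0.10 (0.82 without DMSO array 1). IDL4, of the IDA-like family of secreted peptides, lay at 3.76, 3.84 and 4.01 with hyperphyllin, against 4.96, 4.79 and 4.92 with DMSO. It fell by 1.02 on the log2 scale (adjusted p = 0.00294, limma), and by 0.98 without DMSO array 1.

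The remaining 16 carried a locus code only. AT4G01130 had the lowest adjusted p of those named here, at 6.48, 6.67 and 6.38 with hyperphyllin, against 4.86, 5.11 and 4.79 with DMSO, a difference of 1.59 ± 0.11 (adjusted p = 1.22e-04, limma). DMSO array 1 lay between the other 2 DMSO arrays for this gene. AT4G15700 lay at 3.54, 3.74 and 3.74 with hyperphyllin, against 1.86, 1.52 and 1.65 with DMSO, a difference of 2.00 ± 0.17. AT4G12900 was higher by 1.89 ± 0.17, AT4G22520 by 1.77 ± 0.21, AT3G59350 by 1.54 ± 0.19, AT4G22490 by 1.31 ± 0.16 and AT4G23820 by 1.21 ± 0.13. AT2G36690, AT5G11250, AT4G27720, AT3G57600, AT3G10720, AT5G64110 and AT1G77060 were higher by 0.90 to 1.17. AT4G28005 lay at 4.27, 3.96 and 3.87 with hyperphyllin, against 4.96, 5.02 and 5.14 with DMSO, and AT4G10150 at 2.1, 2.2 and 2.32 with hyperphyllin, against 3.16, 3.08 and 3.45 with DMSO. Both were lower with hyperphyllin in every array, by 1.00 and 1.02 on the log2 scale. AT4G22520 overlaps a neighbouring gene in the RefSeq annotation, so its probe set may report either.

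**Figure D3:**
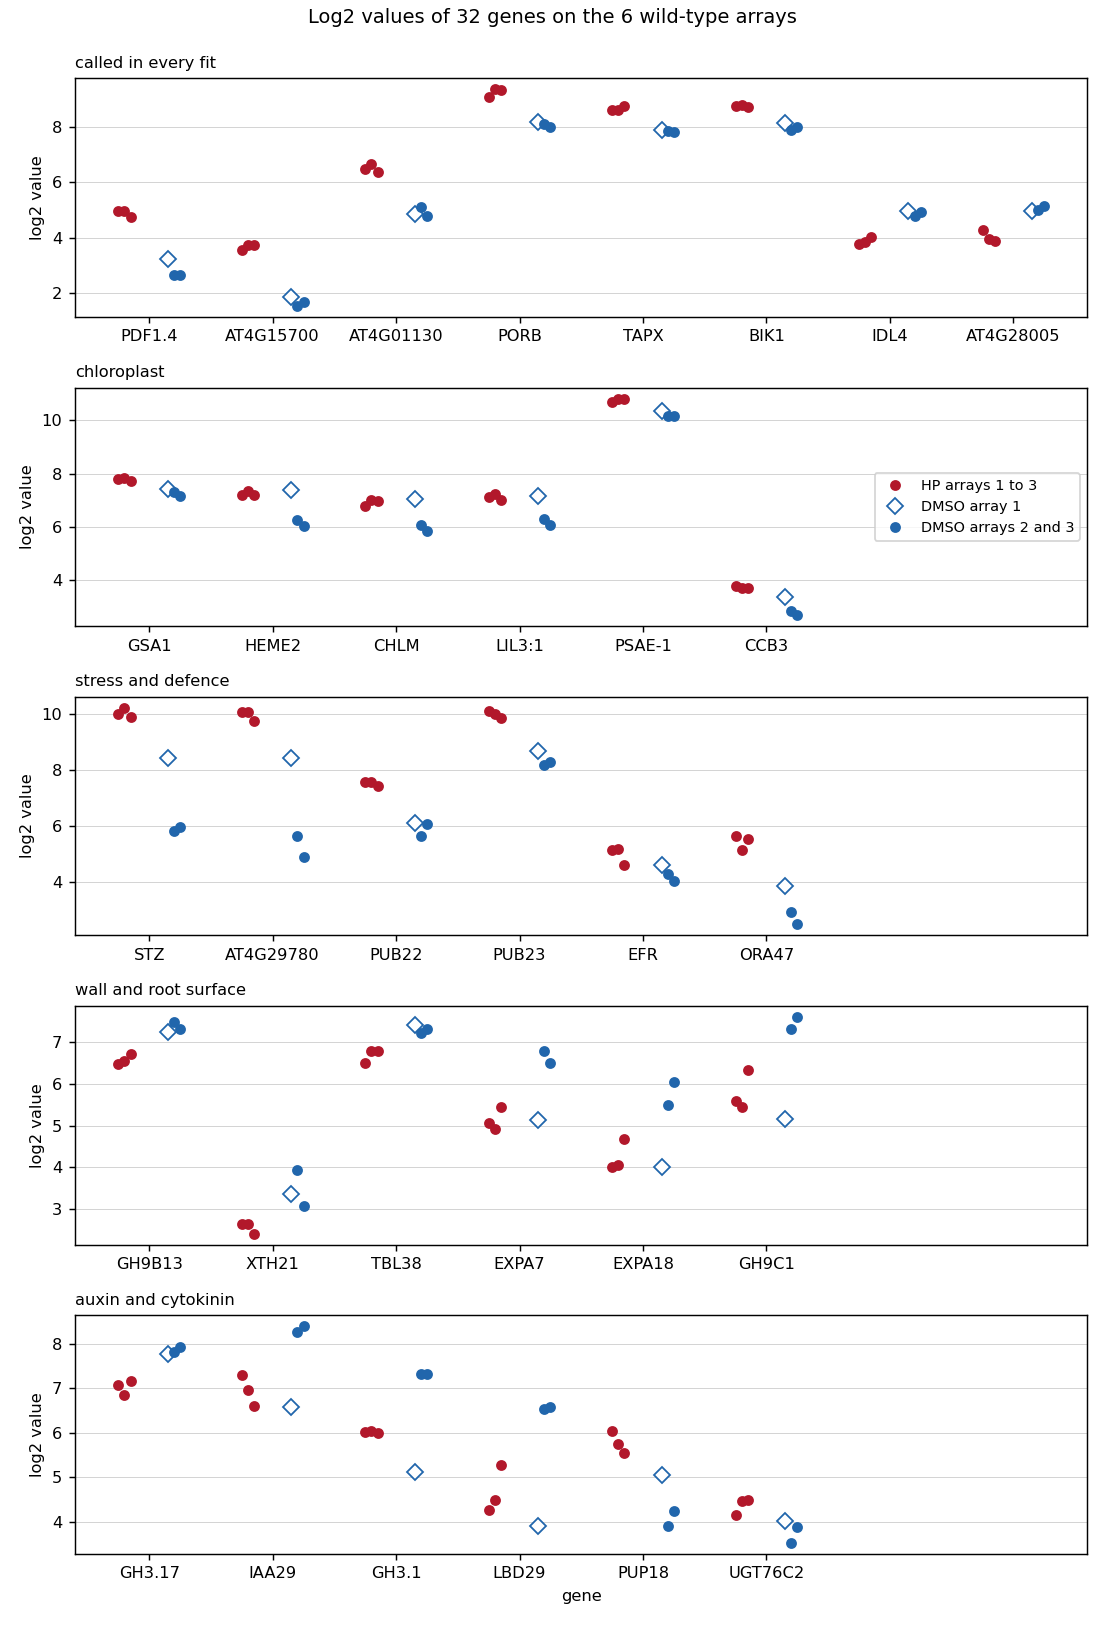
Log2 values of 32 genes on each wild-type array, in 5 panels by gene group (vertical axes differ between panels). Red circles are the 3 hyperphyllin (HP) arrays, blue diamonds DMSO array 1 and blue circles DMSO arrays 2 and 3. In the top panel all 3 DMSO arrays lie on the same side of the hyperphyllin arrays, whereas HEME2, EXPA7, GH3.1 and LBD29 have DMSO array 1 near or beyond the hyperphyllin arrays.

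Several genes of chlorophyll synthesis and the photosynthetic apparatus rose. The gene lists here and below were chosen with earlier results of these data known, and the tetrapyrrole list was added after values were seen. Their shares are therefore a description and not a test. Of 9 measured photosynthesis and chlorophyll genes, 3 rose (33.3%, against 1.23% over all tested probe sets), 0 fell and 6 did not pass, with a median log2 difference of 0.40, against -0.05 over all genes tested. When DMSO array 1 was left out, 7 of the 9 rose (77.8%, against 6.26%) and the median was 0.53. Of 7 measured genes of tetrapyrrole synthesis, the pathway that makes chlorophyll and haem, 2 rose with all arrays, PORB and GSA1 (28.6%, against 1.23%). Without DMSO array 1, 6 rose (85.7%, against 6.26%). The medians were 0.59 with all arrays and 0.93 without DMSO array 1. In whole seedlings, a larger or smaller share of a cell type and more or less RNA per cell of that type cannot be told apart.

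GSA1, the aminomutase that makes the precursor 5-aminolevulinic acid, lay at 7.81, 7.85 and 7.73 with hyperphyllin, against 7.42, 7.30 and 7.16 with DMSO, and rose by 0.51 ± 0.10 (adjusted p = 0.0366, limma). The downstream enzymes split the DMSO arrays. HEME2, uroporphyrinogen decarboxylase, lay at 7.19, 7.35 and 7.19 with hyperphyllin, against 7.40, 6.25 and 6.02 with DMSO. CHLM, the methyltransferase of the chlorophyll branch, lay at 6.80, 7.0 and 6.96 with hyperphyllin, against 7.07, 6.07 and 5.85 with DMSO, and LIL3:1, a light-harvesting-like protein needed for chlorophyll synthesis, gave 7.12, 7.22 and 7.03 with hyperphyllin, against 7.17, 6.30 and 6.08 with DMSO. For these 3 genes DMSO array 1 was as high as the hyperphyllin arrays and the groups overlapped. Their differences did not pass with all arrays (adjusted p between 0.173 and 0.213, limma), and they were 1.11 ± 0.11, 0.96 ± 0.11 and 0.93 ± 0.12 for HEME2, CHLM and LIL3:1 without DMSO array 1.

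PSAE-1, a subunit of photosystem I, lay at 10.68, 10.81 and 10.82 with hyperphyllin, against 10.37, 10.16 and 10.15 with DMSO, and rose by 0.55 ± 0.10 (adjusted p = 0.025, limma). CCB3, needed to assemble cytochrome b6f, lay at 3.78, 3.71 and 3.72 with hyperphyllin, against 3.37, 2.85 and 2.69 with DMSO, and rose by 0.77 ± 0.16. LHCB4.1, an antenna protein of photosystem II, and PSBW, a small subunit of photosystem II, passed only without DMSO array 1, at 0.53 ± 0.12 and 0.43 ± 0.12. The Calvin cycle enzymes gave a smaller and mixed picture. SBPASE, sedoheptulose bisphosphatase, was 0.42 ± 0.12 higher with all arrays (adjusted p = 0.0956, limma) and 0.55 ± 0.10 higher without DMSO array 1. PRK, phosphoribulokinase, lay at 8.47, 8.84 and 8.66 with hyperphyllin, against 9.14, 8.10 and 8.17 with DMSO, so that DMSO array 1 was the highest of the 6. RCA differed by -0.01 ± 0.08, and by 0.02 ± 0.09 without DMSO array 1.

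Other chloroplast proteins rose as well. CHL, the chloroplast lipocalin, lay at 5.43, 5.65 and 5.93 with hyperphyllin, against 5.21, 4.12 and 4.60 with DMSO, and rose by 1.03 ± 0.22 (adjusted p = 0.0427, limma). With TAPX it made 2 of 6 measured genes of a redox and protection list that rose (33.3%, against 1.23% over all tested probe sets). The median of the 6 was 0.39, and 2 rose without DMSO array 1 as well (33.3%, against 6.26%). That list also held glutaredoxin genes, so it did not cover chloroplast proteins alone. 2 of 8 starch and sugar genes rose in either fit (25.0%, against 1.23% over all with all arrays and 6.26% without DMSO array 1). Both encode enzymes of starch breakdown in the chloroplast. PWD (AT5G26570), phosphoglucan water dikinase, lay at 7.20, 7.23 and 7.39 with hyperphyllin, against 6.65, 6.37 and 6.35 with DMSO, and rose by 0.82 ± 0.12 (adjusted p = 0.011, limma). DPE1, the disproportionating enzyme, rose by 0.54 ± 0.10. 3 genes outside these lists that carried a symbol and passed were picked after their values were seen: THIC, which makes the pyrimidine part of thiamine in the chloroplast (0.62 ± 0.14), CLPP4, a subunit of the chloroplast Clp protease (0.50 ± 0.11), and PIFI, a factor of chloroplast electron transport outside the linear chain (0.55 ± 0.12). CRR21, a pentatricopeptide protein that edits a chloroplast transcript, and PHYLLO, which makes the photosystem I cofactor phylloquinone, passed only without DMSO array 1, by 1.35 ± 0.15 and 1.21 ± 0.15. Of 63 measured genes encoded in the chloroplast genome itself, 0 passed with all arrays. The means of 60 were higher with hyperphyllin, with a median of 0.13, against higher means at 6708 of all 16552 loci tested. At an unadjusted p under 0.05 (limma) were 8 of the 63, a smaller share than the 17.5% of all tested probe sets. With DMSO array 1 left out, 11 of the 63 rose (17.5%, against 6.26% of all tested probe sets) and 1 fell (1.59%, against 7.8%). Of the chloroplast calls with all arrays, PORB and TAPX held whichever array was left out and PWD was lost without hyperphyllin array 2 or DMSO array 2 (adjusted p up to 0.0602, limma). GSA1, PSAE-1, CCB3, CHL, DPE1, THIC, CLPP4 and PIFI were lost when any array other than DMSO array 1 was left out, with an adjusted p of up to 0.189.

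Several genes of rapid stress and defence responses rose, led by STZ, which had the highest difference of the called genes with a symbol. STZ, a zinc finger repressor induced quickly by salt, cold and wounding, lay at 10.00, 10.20 and 9.88 with hyperphyllin, against 8.43, 5.81 and 5.96 with DMSO. DMSO array 1 was well above the other 2 and still below all hyperphyllin arrays. STZ rose by 3.29 ± 0.63 (9.79-fold, adjusted p = 0.0285, limma), and by 4.14 ± 0.45 without DMSO array 1. Of 6 measured genes of rapid abiotic stress, 3 rose (STZ, AR781 and TET8; 50.0%, against 1.23% over all tested probe sets), with a median of 1.16, and 4 rose without DMSO array 1 (66.7%, against 6.26%), with a median of 1.43. TET8, a tetraspanin of extracellular vesicles, lay at 8.19, 8.33 and 8.16 with hyperphyllin, against 7.38, 7.41 and 7.42 with DMSO, and the 3 DMSO arrays agreed closely. AR781 rose by 1.81 ± 0.38 (1.94 without DMSO array 1). CML38, a calmodulin-like calcium sensor, lay at 6.26, 6.10 and 6.20 with hyperphyllin, against 5.86, 4.23 and 4.68 with DMSO, and passed only without DMSO array 1, by 1.74 ± 0.29. The related CML37 (1.06 ± 0.40) and the transcription factor WRKY22 (0.87 ± 0.24) passed in neither fit, with adjusted p of 0.132 and 0.0633 without DMSO array 1 (limma).

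2 of 4 measured defence genes rose (50.0%, against 1.23% over all tested probe sets), and the median of the 4 was 1.13. Without DMSO array 1, 3 rose (75.0%, against 6.26%). PUB22 and PUB23, U-box ubiquitin ligases that dampen immune signalling, rose by 1.58 ± 0.36 and 1.62 ± 0.36, and by 1.67 and 1.77 without DMSO array 1. PUB22 lay at 7.56, 7.58 and 7.41 with hyperphyllin, against 6.10, 5.63 and 6.06 with DMSO, and PUB23 at 10.10, 9.99 and 9.85 with hyperphyllin, against 8.67, 8.16 and 8.27 with DMSO. Their homologue PUB24 lay at 7.15, 6.78 and 6.52 with hyperphyllin and at 6.09, 6.37 and 6.31 with DMSO and did not pass. EFR, the receptor of a bacterial elongation factor peptide, was 0.67 ± 0.24 higher with all arrays (adjusted p = 0.161, limma) and 0.82 ± 0.25 higher without DMSO array 1. ORA47, an AP2/ERF factor of the jasmonate response, lay at 5.64, 5.13 and 5.53 with hyperphyllin, against 3.87, 2.92 and 2.49 with DMSO. It missed the threshold with all arrays (2.34 ± 0.57, adjusted p = 0.0593, limma) and passed without DMSO array 1 (2.73 ± 0.60). An ethylene and jasmonate list had 5 measured genes, ORA47 not among them. In either fit 1 of the 5 rose, PDF1.4 (20.0%, against 1.23% over all with all arrays and 6.26% without DMSO array 1). The other 4 did not pass, and the list median was -0.02 with all arrays and -0.14 without DMSO array 1. The calls of STZ, AR781, TET8, PUB22 and PUB23 were each lost when any array other than DMSO array 1 was left out, with an adjusted p of up to 0.188 (limma).

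The 12 genes with the highest differences among the called genes were STZ and 11 loci without a symbol: AT4G29780, AT3G29000, AT1G07135, AT4G27654, AT4G27652, AT2G22880, AT4G22470, AT5G19240, AT5G17350, AT1G51820 and AT1G72910. Their log2 differences lay between 2.29 and 3.65. DMSO array 1 was above DMSO arrays 2 and 3 for all 12, and set alone against the hyperphyllin arrays it still gave differences between 1.16 and 2.49. AT4G29780, for example, lay at 10.07, 10.07 and 9.74 with hyperphyllin, against 8.42, 5.62 and 4.89 with DMSO. For 11 of the 12 the call held in only 1 of the fits that left out an array, the fit without DMSO array 1, and the adjusted p reached 0.0988 to 0.18 in the least favourable fit. In amp1-13 the differences of the same 12 genes lay between -0.55 and 0.53. The amp1-13 arrays themselves spread widely for STZ, at 10.20, 8.97 and 8.98 with hyperphyllin and 8.56, 10.38 and 9.27 with DMSO.

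Some called genes lay next to each other. 8 runs of directly adjacent genes, 17 genes in all, were called in wild type, and within 6 of the runs all members moved in the same direction. How many such runs 304 calls placed at random would give was not determined, so the runs are a description and not a test. On chromosome 5, AT5G19230, AT5G19240 and AT5G19250 rose by 0.91 ± 0.14, 2.42 ± 0.50 and 0.86 ± 0.15. On chromosome 4, AT4G27652 lay at 6.62, 6.55 and 6.71 with hyperphyllin, against 5.2, 3.19 and 2.90 with DMSO, and its neighbour AT4G27654 at 5.58, 5.35 and 5.35 with hyperphyllin, against 2.93, 2.26 and 2.04 with DMSO. AT4G27657, of the same stretch, gave 2.89 ± 0.70 and missed the threshold (adjusted p = 0.0589, limma). A second stretch of chromosome 4 held AT4G22470 (2.44 ± 0.40), AT4G22485 (1.13 ± 0.15), AT4G22490 (1.31 ± 0.16), AT4G22505 (1.23 ± 0.19) and AT4G22513 (1.03 ± 0.19), all called. AT4G22520, given above, also rose, and its locus code lies between those of AT4G22513 and AT4G22530. 2 further loci of that stretch did not rise. AT4G22460 gave -0.88 ± 0.24 with all arrays (adjusted p = 0.0798, limma) and fell by 1.17 on the log2 scale without DMSO array 1, and AT4G22530 gave 0.10 ± 0.10. Elsewhere on the same chromosome AT4G15660, AT4G15680 and AT4G15700 rose by 0.94 ± 0.17, 1.31 ± 0.27 and 2.00 ± 0.17, and 4 further loci tested there did not pass. Of these AT4G15670 gave 1.01 ± 0.29 (adjusted p = 0.099, limma), AT4G15690 gave 0.29 ± 0.25, AT4G15640 gave -0.23 ± 0.12 and AT4G15650 gave 0.0029 ± 0.21. Whether the probes of neighbouring genes tell similar sequences apart was not determined, so neighbours may share signal. AT4G01130 and its neighbour AT4G01140 moved in opposite directions, by 1.59 ± 0.11 and -0.64 ± 0.13. AT4G22485 and AT4G22505 were lost only without hyperphyllin array 2 (adjusted p = 0.057 and 0.0826, limma). AT4G01130, AT4G22490, AT4G22520 and AT4G15700 were lost in no fit without 1 array, and the other called genes of these stretches in at least 4 of the 6.

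Several genes of the cell wall fell. Of 17 measured cell wall remodelling genes 3 fell (against 0.585% over all tested probe sets), 0 rose and 14 did not pass, with a median of -0.38. Without DMSO array 1, 8 fell (47.1%, against 7.8% over all) and 2 rose (11.8%, against 6.26%), with a median of -0.56. GH9B13, an endoglucanase, lay at 6.48, 6.55 and 6.72 with hyperphyllin, against 7.25, 7.49 and 7.32 with DMSO, and fell by 0.77 on the log2 scale (adjusted p = 0.00844, limma). XTH21, a xyloglucan endotransglucosylase, lay at 2.66, 2.64 and 2.41 with hyperphyllin, against 3.36, 3.95 and 3.08 with DMSO. TBL38, of a family that acetylates wall polymers, lay at 6.51, 6.78 and 6.80 with hyperphyllin, against 7.41, 7.23 and 7.32 with DMSO. For these 3 genes all hyperphyllin arrays were below all DMSO arrays, and the differences were -0.82, -0.94 and -0.58 without DMSO array 1. BGLU47, a beta-glucosidase, lay at 2.42, 2.09 and 2.71 with hyperphyllin, against 3.56, 4.13 and 3.78 with DMSO, and fell by 1.42 on the log2 scale (adjusted p = 0.0124, limma). HCT, an acyltransferase of lignin precursor synthesis, fell by 0.44. CSLC04, which makes the backbone of xyloglucan, rose by 0.55 ± 0.10, and BGLU33 rose by 0.67 ± 0.13. HCT, CSLC04 and BGLU33 were picked after their values were seen. GH9B13 and BGLU47 were lost without hyperphyllin array 2 or DMSO array 2 (adjusted p up to 0.0788, limma), and XTH21, TBL38, HCT, CSLC04 and BGLU33 in at least 4 of the 6 fits (up to 0.198).

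A further set of wall genes separated DMSO array 1 from the other DMSO arrays, among them the 2 measured markers of root hairs. EXPA7 lay at 5.06, 4.93 and 5.46 with hyperphyllin, against 5.13, 6.79 and 6.52 with DMSO. EXPA18, a root hair expansin as well, lay at 4.00, 4.06 and 4.69 with hyperphyllin, against 4.02, 5.51 and 6.05 with DMSO. Neither passed with all arrays (adjusted p = 0.164 for EXPA7 and 0.311 for EXPA18, limma), and both were lower without DMSO array 1, by -1.50 ± 0.21 and -1.53 ± 0.35. GH9C1, an endoglucanase, lay at 5.59, 5.45 and 6.34 with hyperphyllin, against 5.15, 7.32 and 7.61 with DMSO. XTH26 gave 6.38, 5.70 and 6.60 with hyperphyllin, against 6.06, 7.89 and 8.00 with DMSO. The pectin methylesterase gene ATPMEPCRD lay at 3.6, 3.5 and 3.24 with hyperphyllin, against 3.11, 5.2 and 5.76 with DMSO. Like the root hair markers, these 3 passed only without DMSO array 1, by -1.67 ± 0.30, -1.72 ± 0.39 and -2.03 ± 0.16. A change in the share of root tissue was measured here only through those 2 of 27 marker genes written, and its part in the other differences was not tested.

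Other wall genes moved upward in the same pattern. XTH16 lay at 6.04, 6.17 and 5.96 with hyperphyllin, against 6.38, 5.19 and 4.84 with DMSO, and EXO, a wall-associated gene of brassinosteroid-dependent growth, at 6.29, 6.66 and 6.23 with hyperphyllin, against 6.34, 4.89 and 5.10 with DMSO. Without DMSO array 1 they were higher by 1.04 ± 0.13 and 1.4 ± 0.20. The expansin-like EXLA1 and the pectin methylesterase gene ATPMEPCRB were higher by 1.4 ± 0.28 and 1.39 ± 0.24 without it, and did not pass with it. EXLA3 lay at 4.42, 4.13 and 4.13 with hyperphyllin, against 2.71, 2.98 and 2.95 with DMSO, so that its groups stayed apart with all arrays, although its adjusted p was 0.0598 (limma). Over the whole expansin family of 23 measured genes, 0 passed with all arrays (8 at an unadjusted p under 0.05, limma, or 34.8%). Without DMSO array 1, 4 rose (against 6.26% of all tested probe sets) and 4 fell (against 7.8%). Of 10 measured xyloglucan endotransglucosylases the means of 5 were higher and of 5 lower, and with all arrays only XTH21 passed (10.0%, against 0.585% lower over all). In the fit without DMSO array 1, 3 of the 10 rose (30.0%, against 6.26%) and 3 fell (30.0%, against 7.8%).

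Auxin-related genes were mostly lower, and their calls depended on DMSO array 1. Of 10 measured auxin response genes the means of 9 were lower with hyperphyllin, against 9844 of all 16552 loci tested. Only GH3.17 passed (10.0%, against 0.585% of all tested probe sets lower), and the median was -0.67. Without DMSO array 1, 7 fell (70.0%, against 7.8% over all tested probe sets) and the median was -0.84. GH3.17, which conjugates auxin to amino acids, lay at 7.09, 6.84 and 7.16 with hyperphyllin, against 7.76, 7.83 and 7.94 with DMSO, and fell by 0.81 on the log2 scale (adjusted p = 0.0124, limma; 0.0788 without hyperphyllin array 2 or DMSO array 2 at the most). HAT2, an auxin-induced homeodomain factor, lay at 7.47, 7.47 and 7.77 with hyperphyllin, against 8.30, 8.40 and 8.38 with DMSO. It missed the threshold narrowly with all arrays (-0.79 ± 0.18, adjusted p = 0.0515, limma) and passed without DMSO array 1 at nearly the same size (-0.82 ± 0.20). In the remaining genes that fell without DMSO array 1, this array lay within or below the range of the hyperphyllin arrays. IAA29, an auxin-induced repressor, lay at 7.30, 6.96 and 6.61 with hyperphyllin, against 6.58, 8.28 and 8.40 with DMSO. GH3.1, of the conjugating family, lay at 6.03, 6.05 and 6.01 with hyperphyllin, against 5.13, 7.33 and 7.31 with DMSO, and LBD29, a factor of lateral root formation, at 4.26, 4.48 and 5.27 with hyperphyllin, against 3.92, 6.53 and 6.58 with DMSO. YUC2, an enzyme of auxin synthesis, lay at 5.46, 5.37 and 5.48 with hyperphyllin, against 5.39, 6.83 and 6.82 with DMSO. Without DMSO array 1 these 4 genes were lower by -1.38 ± 0.41, -1.29 ± 0.13, -1.88 ± 0.32 and -1.39 ± 0.20 for IAA29, GH3.1, LBD29 and YUC2. LBD16, which acts beside LBD29 in lateral roots, was lower by -0.78 ± 0.21 in that fit, and GH3.3 passed in neither.

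Among 5 measured cytokinin genes 1 rose (20.0%, against 1.23% over all tested probe sets), and 2 rose without DMSO array 1 (40.0%, against 6.26%). PUP18, of the purine permease family whose members carry cytokinins and other purines, lay at 6.05, 5.75 and 5.55 with hyperphyllin, against 5.06, 3.91 and 4.24 with DMSO, and rose by 1.38 ± 0.29 (adjusted p = 0.0373, limma; 1.71 ± 0.24 without DMSO array 1). The call was lost when any other array was left out, with an adjusted p of up to 0.142 (limma). UGT76C2, which glucosylates cytokinins and so removes them, lay at 4.15, 4.47 and 4.50 with hyperphyllin, against 4.02, 3.53 and 3.89 with DMSO. It gave 0.56 ± 0.14 with all arrays (adjusted p = 0.062, limma) and passed without DMSO array 1 at 0.66 ± 0.14. The related UGT76C1 gave -0.12 ± 0.13. The type-A response regulators, which cytokinin induces within minutes, did not pass in either fit: RR16 lay at 2.97, 3.58 and 3.37 with hyperphyllin and at 2.25, 2.89 and 2.64 with DMSO, and ARR15 lay at 2.17, 2.63 and 1.83 with hyperphyllin and at 3.57, 2.1 and 1.91 with DMSO.

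Genes of the shoot tip and of leaf and stomatal development gave few calls. Of 3 shoot meristem genes measured, 0 passed (limma, adjusted p between 0.161 and 0.74), and 1 (33.3%) had an unadjusted p under 0.05. CLV3, the signalling peptide of the stem cells, lay at 1.71, 1.90 and 2.15 with hyperphyllin, against 3.02, 1.98 and 1.8 with DMSO, near the low end of the table. LAS, needed for axillary meristems, lay at 2.80, 2.54 and 2.75 with hyperphyllin, against 3.45, 2.95 and 2.92 with DMSO. Of 7 leaf development genes 1 fell (14.3%, against 0.585% over all tested probe sets): BPEp, a bHLH factor that limits petal size, at 3.70, 3.48 and 3.14 with hyperphyllin, against 4.27, 4.30 and 4.26 with DMSO. Without DMSO array 1, 1 rose (14.3%, against 6.26%) and 1 fell (14.3%, against 7.8%). SNZ, an AP2-type repressor of flowering, lay at 3.23, 4.09 and 3.71 with hyperphyllin, against 2.51, 2.91 and 2.99 with DMSO, and missed the threshold with all arrays (0.87 ± 0.21, adjusted p = 0.0554, limma). The means of all 4 measured stomatal genes were higher, with a median of 0.39, against higher means at 6708 of all 16552 loci tested. However, 0 of the 4 passed, and 2 (50.0%) had an unadjusted p under 0.05 (limma). SPCH, the factor that starts the stomatal lineage, lay at 7.02, 7.40 and 6.89 with hyperphyllin, against 6.95, 6.09 and 5.88 with DMSO, and passed without DMSO array 1, by 1.12 ± 0.23. MUTE and FMA (FAMA), which act later in that lineage, passed in neither fit. JAG, a zinc finger factor of leaf blade growth, lay at 4.42, 4.09 and 3.89 with hyperphyllin, against 5.55, 3.3 and 2.32 with DMSO, with DMSO arrays on both sides of the hyperphyllin arrays. LEP, an AP2/ERF factor of leaf petioles, lay at 3.89, 4.44 and 4.80 with hyperphyllin, against 4.17, 6.24 and 6.17 with DMSO. SP1L4, of a family that acts on microtubules, lay at 3.1, 2.61 and 3.03 with hyperphyllin, against 3.58, 4.55 and 4.15 with DMSO, and fell by 1.18 on the log2 scale (adjusted p = 0.0346, limma). BPEp and SP1L4 were lost when any array other than DMSO array 1 was left out (adjusted p up to 0.151, limma).

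**Figure D4:**
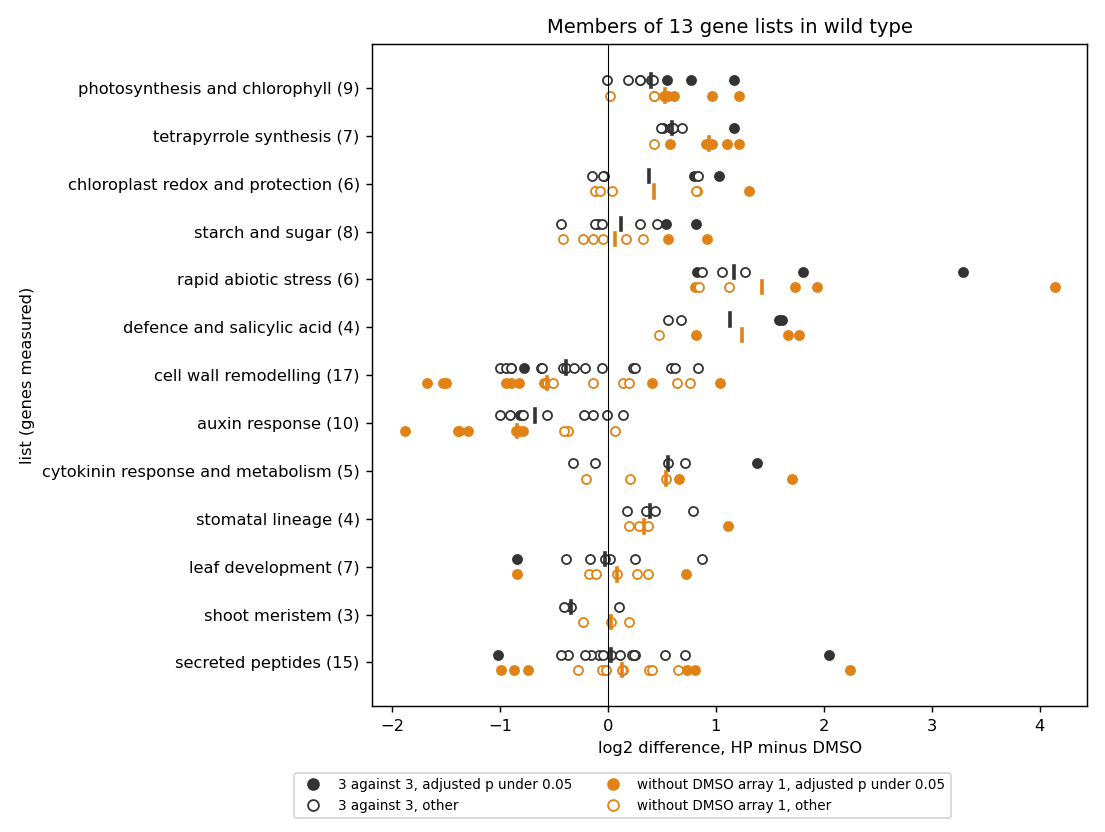
Log2 differences (hyperphyllin minus DMSO, horizontal axis) of the measured members of 13 gene lists, with 3 arrays against 3 (dark) and without DMSO array 1 (orange). Filled circles passed an adjusted p of 0.05, open circles did not, and short vertical bars are list medians. The auxin response list had 1 call with all arrays and 7 without DMSO array 1, all lower, and the tetrapyrrole list had 2 and 6, all higher.

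The 12 genes with the lowest differences among the called genes were 10 loci without a symbol together with BGLU47 and SP1L4. The loci were AT5G10680, AT3G10320, AT2G41970, AT1G34060, AT5G42500, AT4G28790, AT1G02570, AT5G51310, AT1G17090 and AT4G10150, and the 12 differences lay between -1.73 and -1.02. AT5G10680 lay at 3.08, 1.86 and 2.84 with hyperphyllin, against 4.00, 4.84 and 4.13 with DMSO. AT3G10320 lay at 4.1, 4.21 and 4.62 with hyperphyllin, against 5.16, 6.01 and 5.96 with DMSO. DMSO array 1 was the lowest DMSO array for 10 of the 12, and for 6 of the 12 the call held in only the fit without it. Each of the 12 lowest differences was thus smaller in size than each of the 12 highest.

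Families of detoxification enzymes held 1 call or none with all arrays. Of 51 measured UDP-glycosyltransferases 1 rose (1.96%, against 1.23% over all), UGT73B1 at 6.02, 6.22 and 6.17 with hyperphyllin, against 5.55, 5.31 and 5.51 with DMSO. Leaving out DMSO array 1, 5 rose (9.80%, against 6.26% over all) and 8 fell (15.7%, against 7.8%), among them UGT71C1 at 2.89, 2.93 and 3.12 with hyperphyllin, against 3.19, 4.55 and 4.82 with DMSO. Of 26 measured cytochromes P450, 1 rose (3.85%, against 1.23% over all), CYP71B26, by 0.68 ± 0.12. Without DMSO array 1, 1 rose (3.85%, against 6.26%) and 2 fell (7.69%, against 7.8%). Of 14 glutathione transferases 0 passed with all arrays, and 6 (42.9%) had an unadjusted p under 0.05 (limma). In the fit without DMSO array 1, 2 rose (14.3%, against 6.26%) and 3 fell (21.4%, against 7.8%). GSTU20 of that family lay at 6.70, 6.66 and 6.52 with hyperphyllin, against 7.74, 5.15 and 5.10 with DMSO, with DMSO arrays on both sides of the hyperphyllin arrays. Of 15 secreted peptide genes, PDF1.4 rose (6.67%, against 1.23% over all) and IDL4 fell (6.67%, against 0.585%). In the fit without DMSO array 1, 3 of the 15 rose (20.0%, against 6.26%) and 3 fell (20.0%, against 7.8%). PDF1.4 was the single gene called with all arrays among 71 measured defensin-like genes (1.41%, against 1.82% called over all), whose median was -0.06. Of the 71, 2 rose without DMSO array 1 (2.82%, against 6.26%) and 0 fell (against 7.8%). BIM1, a bHLH factor of brassinosteroid signalling, lay at 9.54, 9.49 and 9.45 with hyperphyllin, against 9.90, 9.99 and 10.25 with DMSO, and fell by 0.55. NDB4, an external NADH dehydrogenase of mitochondria, fell by 1.01 on the log2 scale, and here DMSO array 1 was the highest array, at 4.99, against 4.17 and 4.07 in the other DMSO arrays. ANX2 fell by 0.66 at the low values given above. The lowest differences that appeared without DMSO array 1 among genes with a symbol were those of MT1C, a metallothionein (-2.43 ± 0.40), ATPMEPCRD, scpl28, a carboxypeptidase-like gene (-1.89 ± 0.20), LBD29, LEP (-1.83 ± 0.26), RALFL27, a RALF-like peptide gene (-1.75 ± 0.18), FACT, which makes caffeoyl esters of root waxes (-1.75 ± 0.17), XTH26, UGT71C1 and GH9C1. In 9 of these 10 DMSO array 1 lay within or below the hyperphyllin range. Of the genes called with all arrays in these families, ANX2 was lost without hyperphyllin array 2 (adjusted p = 0.075, limma), UGT73B1 in 3 of the 6 fits, and CYP71B26, BIM1 and NDB4 in at least 4.

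In amp1-13 the same treatment changed 3 of 16746 probe sets (0.0179%), of which 2 were among the 304 genes of the wild type. These comparisons share no array. AT4G15700 rose by 2.08 ± 0.17 in amp1-13 (adjusted p = 3.71e-04, limma) and by 2.00 ± 0.17 in wild type, and AT4G15660 by 2.06 ± 0.17 in amp1-13 and by 0.94 ± 0.17 in wild type. PDF1.4 gave 1.43 ± 0.21 in amp1-13 and missed the threshold there (adjusted p = 0.0546, limma). For 237 of the 304 genes (78.0%) the difference in amp1-13 had the sign of that in wild type, as it did for 57.6% of all tested probe sets. Among the 2356 genes called without DMSO array 1 the signs were the same for 1908 (81.0%). The median difference in amp1-13, counted in the direction of the wild type, was 0.20 over the 304 genes, against a median size of 0.81 in wild type. PORB gave 0.31 ± 0.14 in amp1-13 and 1.17 ± 0.14 in wild type, TAPX 0.08 ± 0.09 in amp1-13 and 0.80 ± 0.09 in wild type, and BIK1 0.04 ± 0.10 in amp1-13 and 0.75 ± 0.10 in wild type. IDL4 gave 0.22 ± 0.12 in amp1-13 and -1.02 ± 0.12 in wild type. The difference of TBL38 was -0.60 ± 0.12 in amp1-13 and -0.62 ± 0.12 in wild type, and that of BIM1 was -0.67 ± 0.11 in amp1-13 and -0.55 ± 0.11 in wild type. The test of the difference between genotypes, the interaction, passed for 0 probe sets (0.0%) in limma, with a lowest adjusted p of 0.122 and 1386 probe sets at an unadjusted p under 0.05. It passed for 464 (2.77%) without DMSO array 1 of the wild type.

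**Figure D5:**
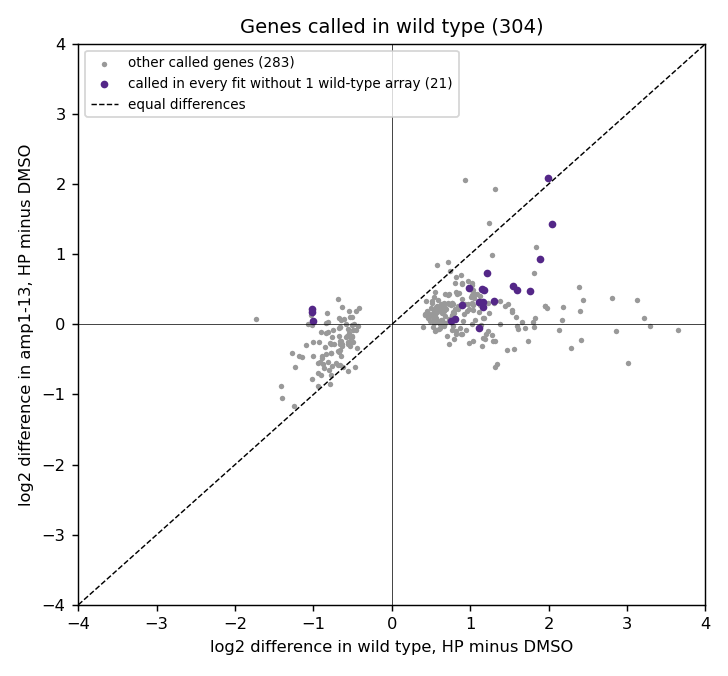
Log2 difference (hyperphyllin minus DMSO) in wild type (horizontal axis) and in amp1-13 (vertical axis) of the 304 genes called in wild type. Purple points are the 21 genes called in every fit that left out 1 wild-type array, and the dashed line marks equal differences. Most points lie on the side of 0 of the wild type but closer to 0, with a median of 0.20 in amp1-13 against 0.81 in wild type.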

How the data were processed

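RNA of whole seedlings was hybridised to 1 Affymetrix array per sample. The authors deposited log2 expression values made with RMA, per the submitters' processing notes; its software and version are not given in the sources used here. No further transformation was applied, and scanner intensities were not used here, so how far each probe rose above background was not determined and the number of arrays limits the precision. Array medians over the tested probe sets lay between 4.09 and 4.15.

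Groups and replicate numbers came from the labels. Probe sets were named through the platform annotation (758 with several genes and 20904 with none were left out), and 16601 of the 16746 tested matched the RefSeq gene table of TAIR10.1, used for names and neighbours only. Genes with several probe sets were represented by the one with the highest mean. The linear model gave each of the 4 groups its own mean over the 12 arrays (limma 3.58.1, R 4.3.3). Its moderated tests had 8 residual and 3.92 prior degrees of freedom, and p values were adjusted by Benjamini-Hochberg over the 16746 probe sets. "Rose", "fell" and "passed" mean an adjusted p under 0.05. The fit was tried on simulated data.

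Named genes were the 12 highest and 12 lowest called genes, those called in every fit without 1 array, the 10 highest and 10 lowest with a symbol that appeared without DMSO array 1, and up to 4 members of each list with the smallest p. Of 802 genes written in 26 lists, 136 were measured. Members and lists were chosen with earlier results of these data known, and the tetrapyrrole list was added last, after values were seen. Further lists are described by their counts: abscisic acid, gibberellin, heat shock, cell cycle, unfolded protein and clock genes gave 0 calls with all arrays in limma, and had 0, 1, 2, 0, 1 and 0 members at an unadjusted p under 0.05. Measured in these lists were 5, 3, 4, 4, 5 and 2 genes. Of the 2 in the clock list, 1 is a lignin synthesis gene that shares its symbol with a clock gene. The alternatives left out each wild-type array, used the wild-type arrays alone, weighted the arrays, blocked on replicate number, and changed the variance prior, centring and probe-set filter. AMP1 was not analysed here.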

Additional observations from a re-analysis of the deposited data

Results flagged for a closer look

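Probe sets that the annotation paired with no gene or with several were not part of the comparison. When all 38408 probe sets were fitted together, 113 of the 21662 left out (0.522%) differed between hyperphyllin and DMSO in wild type at an adjusted p under 0.05 (limma), 85 higher and 28 lower. Their log2 differences reached 3.58 upward and -1.85 downward. The arrays of all 113 did not overlap between the groups, which also held for 19.6% of the 16746 annotated probe sets. That share was not counted over the 21662. In the same fit 99 of the 16746 annotated probe sets (0.591%) passed. The 21662 probe sets were given no gene name here.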

How the results depend on the processing

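The count of changed genes depended on which arrays were used. It lay between 22 (without hyperphyllin array 2) and 2356 (without DMSO array 1) when 1 array was left out, and between 17 and 602 for changes of at least 2-fold, while the interaction lay between 0 and 464. With the 6 wild-type arrays alone 194 genes passed, and 2298 when DMSO array 1 was left out as well (645 at least 2-fold), a setting chosen after seeing the data. With array weights, where DMSO array 1 received 0.198 and the others 0.697 to 1.85, 2888 genes passed, 544 at least 2-fold, and 283 in the interaction. DMSO array 1 alone against the hyperphyllin arrays gave 496, 207 higher and 289 lower, its spread being assumed equal to that of the other groups. The variance trend, centring and brighter probe sets gave 324, 314 and 381. The fit over all 38408 probe sets gave 212, of which only 99 were among the 16746 tested. With the replicate block 212 genes passed, 77 at least 2-fold. The deviations of same-numbered wild-type arrays correlated at 0.0936, -0.146 and 0.254, so the numbers do not show paired samples.

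Of the 126 genes named, 98 kept their sign in every setting. With DMSO array 1 alone as the control, LIL3:1 (-0.049), CHLM (-0.15), HEME2 (-0.15), XTH16 (-0.32), PHYLLO (-0.37), PRK (-0.49), GSTU20 (-1.11) and JAG (-1.41) turned negative. EXPA7 (0.023), UGT76C1 (0.049), YUC2 (0.052), RALFL27 (0.065), SAPX (0.14), XTH26 (0.16), LEP (0.20), EXPA18 (0.23), scpl28 (0.25), ATPMEPCRD (0.34), GH3.3 (0.34), IAA29 (0.37), FACT (0.38), GH9C1 (0.64), LBD29 (0.76), LBD16 (0.90) and GH3.1 (0.90) turned positive. RCA was 0.013 when arrays were centred and ARR15 0.13 with array weights. Leaving out 1 array gave ranges across 0 for RCA (-0.049 to 0.017), PRK (-0.0021 to 0.52), SAPX (-0.12 to 0.042), LBD16 (-0.78 to 0.17), ARR15 (-0.63 to 0.20), JAG (-0.29 to 1.32) and CLV3 (-0.58 to 0.032). Their causes were not tested.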
